A study of Mus musculus with 2 samples.

Results

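The genes of the cytosolic ribosomal proteins were followed in skeletal muscle, with RXRγ mice compared with control mice that carry no transgene. A gene was taken when the platform annotation gave its probe set, a group of short oligonucleotides that measure 1 transcript, a single symbol starting with Rpl or Rps and a digit, or Rplp0, Rplp1, Rplp2 or Rpsa. Symbols of the S6 kinases and symbols marked as pseudogenes were left out. This gave 50 genes on 106 probe sets, of 18194 genes with a symbol of their own and 45101 probe sets on the array. RXRγ mice carry Rxrg as a transgene under the human α-actin promoter, which is active in skeletal muscle, and the arrays used 1 transgenic line, 4-3. Both genotypes were female C57BL6 mice at 4 months of age. RNA of several animals was pooled within each genotype, with different numbers of animals in the labels and in the methods, and each pool was hybridized to 1 Affymetrix MG430 array. There are no replicates, so no error or p-value can be given, and how precise a difference is depends on these 2 arrays alone.

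A ribosome has a small subunit, which reads the mRNA, and a large subunit, which joins amino acids. Each subunit is built from ribosomal RNA and from proteins, most of which are needed in equal numbers, and most of their genes are active in every cell. The mRNAs of these genes begin with a run of C and T bases, called the TOP motif, through which their translation follows growth signals of the kinase mTOR. A few of these proteins have a second gene, a paralog. The best known in muscle is Rpl3l, made in skeletal muscle and heart, whose protein can take the place of Rpl3 beside the peptidyl transferase centre of the large subunit.

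To show the starts of genes that lay at the ends and in the middle of the range, the 30 bases around the first start site listed by RefSeq (GRCm38.p6) are given 5′ to 3′, with 15 bases on either side. Capitals mark the longest run of C and T in each window, and the first line is the gene with the largest difference between the arrays.
Rpl3l, chr17:24727811-24727840, plus strand: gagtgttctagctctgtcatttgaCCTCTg
Rpl22l1, chr3:28805493-28805522, plus strand: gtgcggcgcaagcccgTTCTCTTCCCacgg
Rps27l, chr9:66946071-66946100, plus strand: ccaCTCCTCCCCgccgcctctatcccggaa
Rplp2, chr7:141447636-141447665, plus strand: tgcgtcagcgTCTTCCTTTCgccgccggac
Rpl35, chr2:39005117-39005146, minus strand: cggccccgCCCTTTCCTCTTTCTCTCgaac
Rpl7a, chr2:26910792-26910821, plus strand: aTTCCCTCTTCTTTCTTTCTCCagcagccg
Rpl38, chr11:114668565-114668594, plus strand: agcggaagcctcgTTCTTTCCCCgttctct
Rps7, chr12:28635939-28635968, minus strand: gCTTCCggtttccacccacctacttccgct
A RefSeq promoter was found for 44 of the 50 genes. A run of at least 8 C and T bases in this window occurred in 18 of the 44 (40.9%), against 11.9% of the 27025 genes in the promoter table. The longest run of Rpl3l had 5 bases, as had that of Rps7, whereas Rpl35 had 18 and Rpl7a had 21. In the whole 300 bases, from 250 before to 50 after the start, the letters CCGGAAG, the core that Ets family factors bind, were found on either strand in 21 of the 44 promoters (47.7%) and in 9.12% of all promoters. They were not found in the promoters of Rpl3l and Rpl22l1. The letters AGGTCA, the half-site that nuclear receptors such as RXR bind, occurred in 3 of the 44 (6.82%) and in 16.0% of all promoters; the 3 genes were Rpl3l, Rps3 and Rps4x. The letters CANNTG, the E-box of myogenic factors, were found in 23 of the 44 (52.3%) and in 72.1% of all promoters. Of these 44 promoters, that of Rpl3l held 4 E-boxes and no other held more than 2. The motifs do not contain one another, although CCGGAAG read on the other strand holds a short stretch of C and T, and a match describes the letters alone. The 250 bases before the start of Rpl3l are shown because it is the gene that differed most, with its 3 E-boxes in this stretch in capitals.
Rpl3l, chr17:24727576-24727825, plus strand: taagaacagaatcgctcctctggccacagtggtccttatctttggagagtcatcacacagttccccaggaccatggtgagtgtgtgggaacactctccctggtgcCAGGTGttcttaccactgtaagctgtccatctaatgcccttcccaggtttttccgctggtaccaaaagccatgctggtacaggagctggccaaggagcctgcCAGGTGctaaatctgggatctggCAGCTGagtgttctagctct

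On the array of RXRγ mice the transgene's gene, Rxrg, reached 9172.1 against 334.5 in control mice, so the arrays match their labels. Signals are in the array units of the authors, which had been scaled to a trimmed mean of 100.0 on both arrays. The log2 ratio divides the signal in RXRγ mice by that in control mice, so that it is above zero where RXRγ mice were higher. A gene was given the average log2 ratio of those of its probe sets that exceeded 250 on at least the brighter array. A gene was called higher or lower from a log2 ratio of 0.4 in either direction, the threshold of the study. Of the 50 ribosomal protein genes, 38 passed the signal filter, on 72 probe sets. The defining genes of skeletal muscle fibres were all present, with Acta1 at 10439.9 and 10998.7 and Tnnt3 at 12766.1 and 15036.5 in RXRγ and control mice.

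No ribosomal protein gene was higher in RXRγ mice, and 2 of 38 were lower, Rpl3l and Rpl22l1. Over all 3780 genes above the filter, 16.8% were higher, 20.1% lower and 36.9% either. This filter lets in genes that are bright on 1 array only. Of the 3055 genes above 250 on both arrays, which include all 38, 28.5% were called in either direction. The median log2 ratio of the 38 genes was -0.03, beside -0.04 over all genes. The quartiles of the 38 lay at -0.09 and 0.06, and those of all genes at -0.32 and 0.26. A log2 ratio within 0.2 of zero was found for 34 of the 38 (89.5%) and for 36.3% of all genes. These genes are bright, so the same shares were also taken among genes above a signal of 1000. There, 86.5% of 37 ribosomal protein genes and 38.4% of 1056 genes lay within 0.2, and of the 37 none was higher and 2 were lower, against 15.4% higher, 21.8% lower and 37.2% either of the 1056. Summed over the 72 probe sets, the signal came to 262579.4 for RXRγ and 266468.0 for control mice.

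**Figure D1:**
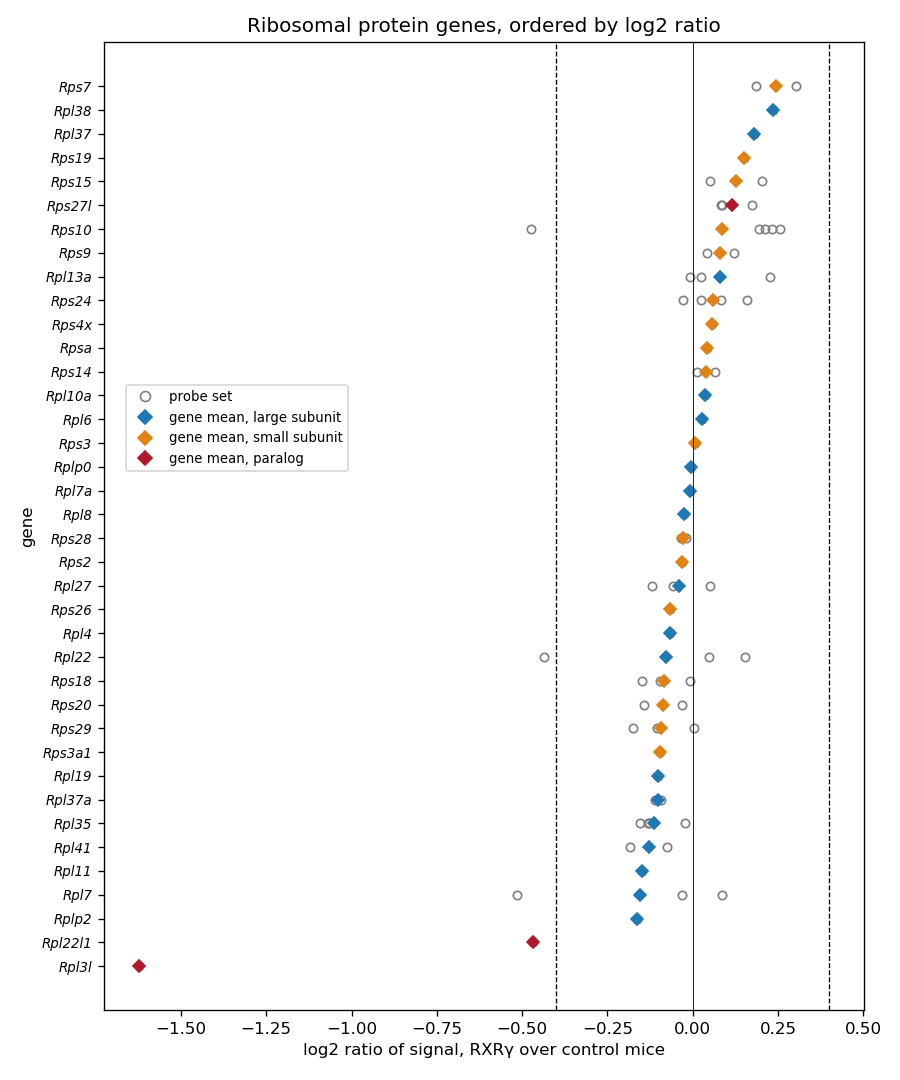
The 38 measured ribosomal protein genes (vertical axis) ordered by their log2 ratio, RXRγ over control mice (horizontal axis), with 1 array per genotype. Open circles are probe sets, coloured diamonds are gene means and dashed lines mark 0.4 in either direction; Rpl3l lies at -1.62 and Rpl22l1 at -0.47, while every other gene mean lies between -0.16 and 0.24.

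The signal of Rpl3l was 1130.0 in RXRγ mice and 3484.3 in control mice. It was 3.08-fold lower, a log2 ratio of -1.62, on its single probe set. Only 51 of the 3780 genes (1.35%) had a log2 ratio as low or lower. The parent gene Rpl3 is not among the 50, because its probe set is assigned to Rpl3 together with the predicted gene Gm12816. This probe set went the other way, with 2766.5 for RXRγ against 1075.8 for control mice (2.57-fold, log2 ratio 1.36). Which of its 2 genes gave the signal was not tested. The nearest genes beside Rpl3l in RefSeq were not called lower. Msrb1, a methionine sulfoxide reductase on its one side, had 5288.5 against 1075.7 in control mice (log2 ratio 2.30). On its other side, the complex I subunit gene Ndufb10 had a log2 ratio of 0.08, and the next gene, Rps2, itself a ribosomal protein gene, one of -0.03.

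Rpl22l1, the paralog of the RNA-binding protein gene Rpl22, had 1236.4 in RXRγ mice and 1709.7 in control mice. It was 1.38-fold lower (log2 ratio -0.47), close to the threshold, and 16.9% of all genes were as low or lower. Its parent Rpl22 had 3 probe sets that did not go one way. Their signals were 2081.7 against 2012.6 in control mice, 3715.5 against 3344.5, and 264.0 against 357.2, with log2 ratios of 0.05, 0.15 and -0.44, and the dimmest of the 3 was the lower one. Rps27l, a paralog of Rps27 that p53 can induce, had log2 ratios of 0.08, 0.09 and 0.17 at its 3 probe sets. The parent of Rps27l was seen at a probe set that also names its copy Rps27rt, with 3768.5 against 3885.8 in control mice. The 3 remaining paralogs, Rpl7l1, Rpl39l and Rps4l, did not pass the filter. Rpl7l1 reached 221.3 in RXRγ mice and 181.9 in control mice, Rpl39l reached 37.2 and 41.8, and Rps4l, which RefSeq lists as a transcribed pseudogene, 31.6 and 25.2.

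**Figure D2:**
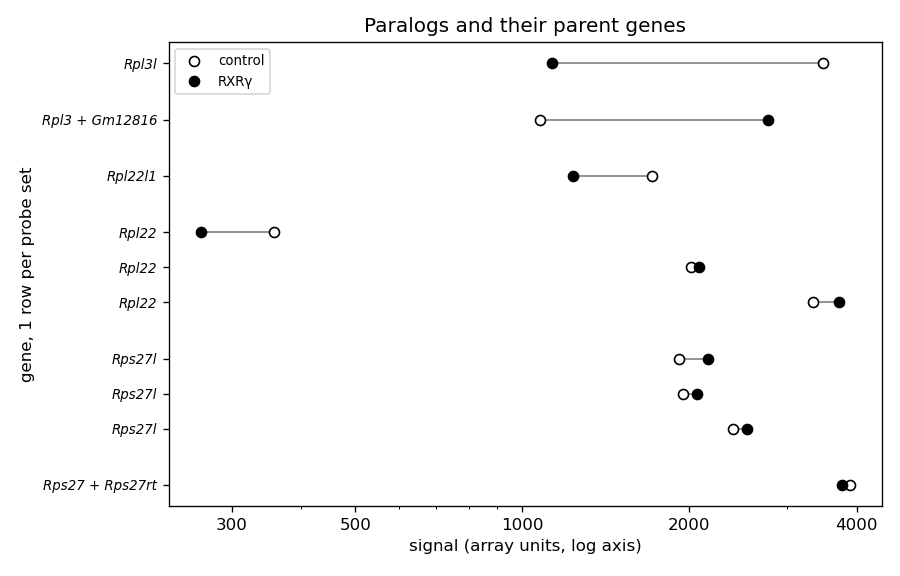
Signals of 3 paralogs and of the probe sets of their parent genes on a log axis in array units, 1 row per probe set above 250, with an open circle for control and a filled circle for RXRγ mice. The circles of Rpl3l lie at 3484.3 and 1130.0 and those of Rpl3 and Gm12816 in the opposite order at 1075.8 and 2766.5, while the pairs of Rps27l and of Rps27 with Rps27rt nearly touch. Levels of different probe sets cannot be compared.

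The log2 ratios of the 38 genes had a standard deviation over genes of 0.29, against 0.71 over all genes. Without the paralogs, 35 genes were measured, and their log2 ratios ran from -0.16 to 0.24, with a standard deviation of 0.11. The large subunit gave 18 of them, with a median of -0.05, and 13 of the 18 were below zero. The small subunit gave 17, with a median of 0.04, and 10 of the 17 were above zero. When both arrays were scaled to the same median signal the medians became -0.15 and -0.06, both below zero, and that scaling moved the median of all genes to -0.15. With loess centring they became 0.01 and 0.11, both above zero, so neither subunit's sign held under every scaling. The median of the small subunit stayed above that of the large one under each of them, also with quantile normalization (0.05 and -0.02). With 1 array per genotype, the precision of this gap cannot be given.

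At the stalk, which recruits elongation factors to the large subunit, Rplp0 had 6795.9 against 6826.6 in control mice and Rplp2 had 5017.3 against 5621.5 (log2 ratios -0.01 and -0.16). Rplp2 was the lowest gene after the 2 paralogs. Rpl11, which forms a particle with 5S ribosomal RNA and can bind the p53 regulator Mdm2, had 2906.0 against 3224.9. Around the peptidyl transferase centre and the tunnel through which the new chain leaves, 6 genes were measured. Rpl3l was the one called (16.7%, against 36.9% of all genes). Rpl4, which lines the tunnel, had 5906.1 against 6184.4, and Rpl8 had 2964.2 against 3018.6. At the mouth of the tunnel, Rpl19 had a log2 ratio of -0.10 and Rpl35 one of -0.11, with its 5 probe sets between -0.15 and -0.02. Rpl38, which in the mouse embryo is needed for translation of Hox mRNAs, had 7863.7 against 6687.9 and was the highest of the large subunit (log2 ratio 0.23). Rpl37 followed with 546.2 against 482.2 (log2 ratio 0.18). The probe sets that name Rpl37 together with its copy Rpl37rt went the other way, with 3361.9 against 3847.9 and 4173.6 against 4854.6 (log2 ratios -0.19 and -0.22).

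On the small subunit, the 7 measured genes that lie along the path of the mRNA had log2 ratios between -0.07 and 0.13. None was called, against 36.9% of all genes, as with most of the 38 genes. Among them Rps2 had 6905.1 against 7059.0 in control mice, Rps3 had 2759.6 against 2748.4 and Rpsa, also known as a laminin receptor, 3020.6 against 2932.0. Rps7 was the highest of the 38 genes. Its 2 probe sets had 4483.6 against 3635.8 and 3768.0 against 3314.1, log2 ratios of 0.30 and 0.19. Rps19, the gene most often mutated in Diamond-Blackfan anaemia, had 1926.1 against 1737.5 (log2 ratio 0.15). Of the genes of this anaemia, in which red cell formation fails, 10 were measured and their median was -0.03. None was called, again against 36.9% of all genes. Rps29 had log2 ratios of 0.00, -0.11 and -0.18 at its 3 probe sets. Rps15, at the decoding site, had 3352.7 against 3120.7 (log2 ratio 0.13).

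The other genes lay between these values. On the large subunit Rpl7, with 3 probe sets that are given below, had a mean log2 ratio of -0.15, Rpl41, the smallest protein of the ribosome, one of -0.13 and Rpl37a one of -0.10. Closer to zero were Rpl27 at -0.04 and Rpl7a at -0.01, where Rpl7a had 4615.5 against 4640.8 in control mice. Above zero were Rpl6 at 0.03, Rpl10a at 0.04 and Rpl13a at 0.08, the last a protein known to leave the ribosome and silence inflammatory mRNAs. On the small subunit the low end held Rps3a1 at -0.10, Rps20 at -0.09 and Rps18 at -0.08, and Rps24 and Rps4x, the X-linked RPS4 gene, both stood at 0.06. Rps9, which guards the accuracy of decoding, had 2444.8 against 2326.3 (log2 ratio 0.08). None of these differences came near the threshold.

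Probe sets of the same gene mostly lay close together. In the 18 genes with more than 1 probe set above the filter, their log2 ratios spanned a median of 0.14, against 0.20 in the 1213 such genes of the whole array. The span reached 0.4 in 3 genes. Of the 72 probe sets, 5 were lower and none was higher by 0.4, beside 20.9% and 17.2% of all probe sets. Besides those of Rpl3l and Rpl22l1, they were the probe set of Rpl22 given above, 1 of Rpl7 (1116.7 against 1595.1 in control mice, log2 ratio -0.51) and 1 of Rps10 (373.8 against 519.2, log2 ratio -0.47). Each of these 3 was the dimmest above the filter for its gene. The other 4 probe sets of Rps10 lay between 0.19 and 0.26, and the other 2 of Rpl7 at 0.08 and -0.03.

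Some genes had no probe set of their own above the filter. The 12 genes were Rpl12, Rpl14, Rpl27a, Rpl39, Rps6, Rps16, Rps25, Rps27, the 3 paralogs given above and Rps19bp1, which encodes a binding protein of Rps19 and not a ribosomal protein. Rps6, the substrate of S6 kinase that gives the kinase its name, had 160.7 in RXRγ mice and 158.4 in control mice at the brighter of the probe sets that name it alone. For 8 of the 12 genes, probe sets that name them together with other genes did pass, so what keeps these genes out is the rule of a single symbol. The log2 ratios of these 19 shared probe sets ran from -0.34 to 0.24, and none was called. Those of Rps6 with its pseudogene Rps6-ps4 included 1 with 5153.6 in RXRγ and 5155.9 in control mice and 1 with 4961.9 and 5716.8. Shared probe sets of Rpl39, Rps16 and Rps25 had 6013.0 against 6272.8, 5971.3 against 5909.0 and 3667.8 against 4218.2, and the lowest ratio was at 1 of Rpl12 (1901.1 against 2413.2). In all, 34 of the 106 probe sets did not pass, none of them with a signal over 221.3, and their log2 ratios ran from -3.39 to 3.83. With signals this low the ratios carry no order, and 12 of the genes with a probe set among the 34 had another one above the filter.

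**Figure D3:**
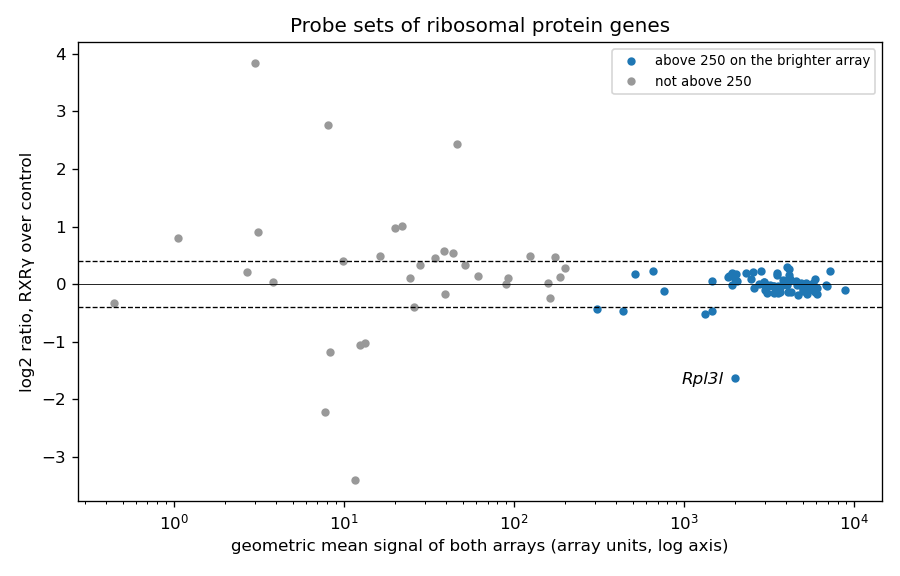
The log2 ratio, RXRγ over control, of each probe set (vertical axis) against the geometric mean signal of both arrays in array units (horizontal log axis), for the 106 probe sets of ribosomal protein genes. Blue points passed the filter of 250 on the brighter array and grey points did not; blue points gather around zero apart from Rpl3l at -1.62, and grey points scatter from -3.39 to 3.83.

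Many ribosomal protein genes could not be followed alone, because the annotation assigns their probe sets to several genes, mostly copies and predicted genes but also unrelated ones such as Tax1bp3. Of 110 such probe sets, 84 were above the filter, 3 were higher and 1 was lower, against 25.8% of all probe sets with several genes. The median log2 ratio of the 84 was -0.01, with 36 above zero and 48 below. The lower one names Rpl15 and Gm10224 (516.7 against 717.5 in control mice, log2 ratio -0.47), and the higher ones name Rpl3, Rps12 and Rpl13 with other genes. Not called, but below zero at every shared probe set above the filter, were Rps13, between -0.38 and -0.34, and Rpl36a with Rpl36al, at -0.33 and -0.39. Fau, which encodes a small subunit protein fused to a ubiquitin-like protein and has a symbol outside the rule, had a log2 ratio of 0.15.

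Other gene groups of protein synthesis are read against the shares of all 3780 genes, 16.8% higher, 20.1% lower and 36.9% either. Of 71 measured mitochondrial ribosomal protein genes, which build the separate ribosome of mitochondria, 3 were higher and 9 were lower (16.9% called, median -0.10). Mrpl33 had 526.5 against 1258.5 in control mice. Mrps35 had 381.2 against 182.9, and so exceeded 250 on 1 array only. Of the 18 other measured genes whose mRNAs carry a TOP motif, 3 were higher and 1 was lower (22.2% called, median -0.01). The elongation factor gene Eef1a1 had 5297.2 against 3511.2 and the initiation factor gene Eif3l had 665.5 against 448.3. The chaperonin gene Cct4 had a mean log2 ratio of 0.40, at the threshold, with 4 probe sets that ran from 0.05 to 1.03. The histone chaperone gene Nap1l1 had 313.8 against 411.6, a mean log2 ratio of -0.44, with 7 probe sets that ran from -0.86 to -0.17. Of 13 measured genes of ribosome biogenesis, 2 were higher and 4 were lower (46.2% called, median -0.16). Nop16 had 357.9 against 186.7 and Rrs1 had 482.6 against 327.2, while Tsr1, which matures the small subunit, had 186.7 against 320.4 and the nucleolar GTPase gene Gnl3 had 276.0 against 436.8. Dkc1, the pseudouridine synthase of ribosomal RNA, had a log2 ratio of -0.59. Nucleolin (Ncl) had a mean of -0.40, with 2 probe sets at -0.56 and -0.24. Of these called genes, Nop16, Tsr1 and Dkc1 exceeded 250 on 1 array only. Among all genes above 250 on both arrays, 28.5% were called, and the lists were not recounted under that filter. Of RNA polymerase I, which transcribes ribosomal RNA, and its factors 4 genes were measured, 2 of them (Polr2e and Polr2f) shared with RNA polymerase II. They had log2 ratios from 0.05 to 0.21 and none was called.
A further list held genes of mTOR complex 1, its regulators and targets, S6 kinases by name and Larp genes. Of its 11 measured genes, 3 were higher and 3 were lower (54.5% called against 36.9% of all genes, median -0.25). Eif4ebp1, the translation repressor that mTOR phosphorylates, had 1044.5 against 404.6 in control mice. Mtor itself had 413.9 against 229.7, so it exceeded 250 on 1 array only, and Deptor, an inhibitor of mTOR, had 884.2 against 518.8. Larp1, which binds the TOP motif and holds back translation of ribosomal protein mRNAs, had 471.4 against 652.3 (log2 ratio -0.47). The related gene Larp4 and the kinase gene Rps6ka3 had log2 ratios of -0.42 and -0.51. The ubiquitin genes listed had no probe set of their own.

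**Figure D4:**
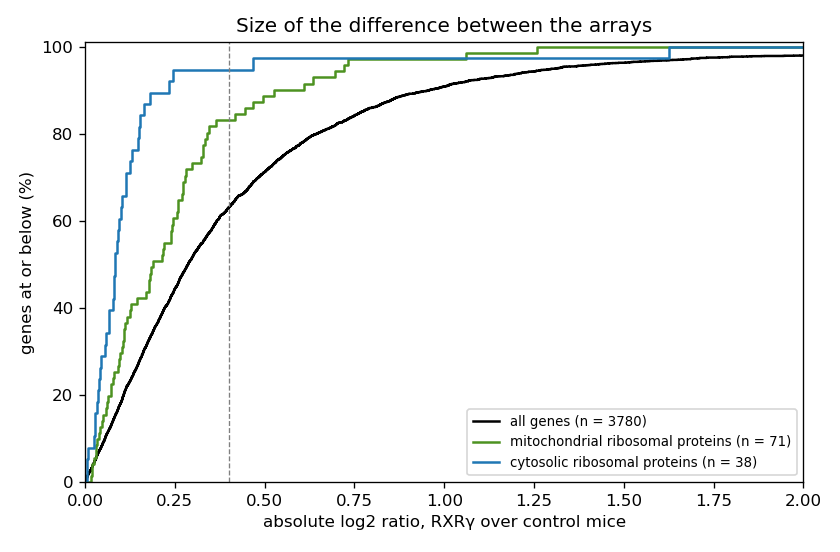
Share of genes, in percent, whose absolute log2 ratio between RXRγ and control mice is at or below the value on the horizontal axis, shown for 38 cytosolic and 71 mitochondrial ribosomal protein genes and all 3780 genes. The dashed line marks 0.4; left of it lie 36 of the 38 cytosolic genes, and the axis ends at 2.

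Markers of cells and states were set beside the difference of Rpl3l, a gene of muscle fibres. In pooled tissue, fewer cells of a type and less RNA per cell cannot be told apart. All 10 fibre markers were below zero, with a median of -0.24, against -0.04 over all genes. Of the 10, 3 (30.0%) were called lower, against 20.1% of all genes. These were Myh2, Ckm and Myh4, with mean log2 ratios of -0.81, -0.75 and -0.42. However, the 2 probe sets of Ckm differed (-1.39 and -0.11), as did the 2 of Myh4 (-0.77 and -0.06). The summed signal of the fibre markers was 123264.3 against 148021.7 in control mice. Of the genes of developing or regenerating muscle, 11 were on the array and 2 passed the filter. Myh8, the perinatal myosin, had 9704.6 against 53.8 and desmin (Des) 5190.8 against 3988.4. Myog, Pax7 and Myh3 did not reach 250, at 185.9, 50.3 and 112.3 in RXRγ mice and 75.4, 15.9 and 42.7 in control mice. Myod1 and Mymk, also under 250, went the other way. They reached 156.3 and 0.7 in RXRγ mice and 175.2 and 3.7 in control mice. Signals this low carry no order. The summed signal of adipocyte markers was 9540.4 against 8474.8, that of leukocyte markers 1654.0 against 1375.6, that of fibroblast markers 13369.3 against 11672.1, that of endothelial markers 753.8 against 947.2 and that of erythroid markers 71.8 against 106.4. The filter of 250 was passed by 3 of 5 adipocyte, 2 of 8 leukocyte and all 6 fibroblast markers on the array. No endothelial or erythroid marker passed it, so the sums of these lists rest on signals too low for a ratio. Of these lists Lum, a fibroblast proteoglycan, was the one gene called (1770.8 against 699.1), and no marker was at zero on either array. The part of these cells in the difference of Rpl3l was not tested.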

How the data were processed

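Skeletal muscle RNA of control and RXRγ mice was measured on 1 array per genotype (2 arrays). The deposited values are signal intensity per probe set, made by the authors with the Affymetrix Gene Chip software from perfectly matched against mismatched oligonucleotides, on a linear scale and scaled per array. How the arrays were scaled is not stated in the methods or labels, and no present or absent call was used. Bright probe sets can also bind the many processed copies of ribosomal protein genes, and 39 of the 72 used carry names ending in _x_at or _s_at, which mark probe sets that may bind several transcripts.

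Probe sets were named through the platform annotation: 34958 have 1 symbol, 932 several and 9211 are not listed. The log2 ratio was taken without a pseudocount. A gene was neither higher nor lower where its probe sets passed 0.4 in both directions. Samples were grouped by their genotype labels. With no replicates no test was run, and the array values carry no depth. The members and gene lists were chosen with earlier results of these data known. Genes named are those past the threshold on the mean or a probe set, the 5 highest and 5 lowest, the 5 brightest, paralogs with their parents, genes whose probe sets span 0.4, and up to 4 genes of each companion list; some further genes were added to show the rest of a group. Alternatives changed the scaling (median, quantile, loess with statsmodels 0.14.6), a pseudocount of 32, a floor of 150, the filter, the handling of probe sets, the threshold and the unit counted. The steps were tested on simulated data. Promoters came from RefSeq, GRCm38.p6, at the first start listed. The deposited array data name no build. Python 3.11.15, pandas 2.3.3, numpy 2.4.6 and matplotlib 3.10.9 were used.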

Additional observations from a re-analysis of the deposited data

Results flagged for a closer look

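The probe sets that name a ribosomal protein gene with other genes lie outside the comparison of genes with a symbol of their own, and 3 of them were higher on the array of RXRγ mice than on that of control mice. The probe set of Rpl3 and Gm12816 had a log2 ratio of 1.36. One of the 3 probe sets that name Rps12 with 10 other symbols, 9 of them its pseudogenes, had a log2 ratio of 0.56 (3501.2 against 2374.5), and the others had 0.39 and 0.23. The probe set of Rpl13 and Tax1bp3 had a log2 ratio of 0.42 (346.4 against 258.4), and the 3 other probe sets that name Rpl13 lay between -0.05 and 0.15.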

How the results depend on the processing

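Of 15 alternatives, 13 recomputed log2 ratios of genes, and for 17 ribosomal protein genes they gave 216 values, and all 216 stayed on the same side of 0.4. That of Rpl3l ran from -1.72 to -1.57 and that of Rpl22l1 from -0.57 to -0.41. Each of these 2 genes has 1 probe set, bright on both arrays. Only the scalings and the pseudocount could therefore move its value, and the other alternatives say nothing about it. No gene mean other than these 2 was called under those of the 13 that kept a signal filter. Without a filter on signal, 6 members were higher and 4 were lower, beside 51.2% of all genes called. The 4 include Rpl3l and Rpl22l1, and the other calls rest on probe sets too dim for a ratio. At a threshold of 1, 1 member was lower and 9.15% of all genes were called, and when probe sets were counted 5 were lower. Without probe sets ending in _x_at or _s_at 29 members were left. The filter of 1000 was chosen after seeing the data. No paired analysis was possible because each genotype has 1 array, and for the same reason no replicate could be left out. Low signal limits what can be said of 4 genes, and the rule of a single symbol what can be said of 8 others whose shared probe sets were bright.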
